A study of Homo sapiens with 4 samples.

Results

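The CDK inhibitors and D-type cyclins comprise 10 genes, namely the CIP/KIP inhibitors *CDKN1A*, *CDKN1B* and *CDKN1C*, the INK4 inhibitors *CDKN2A*, *CDKN2B*, *CDKN2C* and *CDKN2D*, and the cyclin genes *CCND1*, *CCND2* and *CCND3*. They were chosen by name, and each was found by its Ensembl identifier, so that 10 of the 58735 genes in the table were followed. RNA-seq was carried out in cells labelled NB4, a line of human acute promyelocytic leukemia cells, in 2 control libraries labelled as having no treatment and 2 libraries from cells treated with GNE-987. The dose was 25 nM and the time 24 h, as read from the study's text. This compound joins a BET protein ligand to a ligand of a ubiquitin ligase, which leads to degradation of BET proteins. Nothing in the labels says that the 2 libraries of a group came from separate cultures, so P values measure the spread between these libraries, which may be technical.

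Cells pass from G1 to S phase when D-type cyclins bring CDK4 and CDK6 to the retinoblastoma protein, and cyclin E with CDK2 completes its phosphorylation. INK4 proteins bind CDK4 and CDK6 and keep the cyclin away, whereas CIP/KIP proteins bind the assembled cyclin and kinase, and inhibit CDK2 complexes in particular. In blood cells the D-type cyclins respond to growth signals, *CDKN1A* is a classical gene of the DNA damage response, and p27, the product of *CDKN1B*, is marked for destruction by the SKP2 ubiquitin ligase.

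Most myeloid granule markers, which define a promyelocyte, were near 0 in the control libraries labelled NB4. Of 8 myeloid markers, 6 were under 1 FPKM in both control libraries, with *ELANE* and *CTSG* listed at 0 and *MPO* at 0.0246 and 0 FPKM. The summed level of the 8 markers was 10.8 and 9.53 FPKM in the controls and 32.3 and 29.6 FPKM with GNE-987. *MPO* and *AZU1* made up most of that difference, at 11.8 and 11.3 and at 12.6 and 10.9 FPKM with GNE-987, while *CD33* fell and *SPI1* was at 7.52 and 5.68 FPKM in the controls and 4.80 and 3.23 FPKM with GNE-987. All 9 erythroid markers were above 1 FPKM in at least 1 control library, and their sum was 450 and 426 FPKM in the controls and 770 and 656 FPKM with GNE-987, while *GATA1* went from 124 and 122 to 15.1 and 12.5 FPKM. These values go against the label of the cells, and the identity of the cells was not tested. The part of the marker differences in the results was not tested. FPKM counts fragments per unit of transcript length, relative to the size of the library. The reads on genes, recovered from the steps of the values, numbered 19487102 and 19290542 in the controls and 12423777 and 12929901 with GNE-987, and the low values of the GNE-987 libraries are the less precise.

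Promoter sequence of 4 of the 5 called members is shown so that the starts of genes that moved can be compared, and that of *CCND1*, the fifth, is not shown. The 250 bases before the start came from a RefSeq table on GRCh38.p14, in which 7 of the 10 members were matched. They are written 5′ to 3′ on the strand of the gene for *CDKN1A* (chr6:36678464-36678713, plus strand), *CDKN1B* (chr12:12717118-12717367, plus strand), *CDKN2D* (chr19:10568980-10569229, minus strand) and *CCND3* (chr6:41941809-41942058, minus strand), each at the start that GENCODE release 44 marks as canonical. Capitals mark the GC box (GGGCGG) and the CCAAT box (CCAAT), each searched on both strands.
CDKN1A: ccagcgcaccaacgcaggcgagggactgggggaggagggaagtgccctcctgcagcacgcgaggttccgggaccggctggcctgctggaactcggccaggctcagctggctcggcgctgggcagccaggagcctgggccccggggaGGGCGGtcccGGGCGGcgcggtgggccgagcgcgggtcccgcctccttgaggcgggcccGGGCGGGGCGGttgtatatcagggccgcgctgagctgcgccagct
CDKN1B: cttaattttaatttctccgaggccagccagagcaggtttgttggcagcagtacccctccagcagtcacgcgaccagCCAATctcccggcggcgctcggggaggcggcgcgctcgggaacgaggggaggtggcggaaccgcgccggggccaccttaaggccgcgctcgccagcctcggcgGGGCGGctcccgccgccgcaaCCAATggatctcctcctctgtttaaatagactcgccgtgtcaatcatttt
CDKN2D: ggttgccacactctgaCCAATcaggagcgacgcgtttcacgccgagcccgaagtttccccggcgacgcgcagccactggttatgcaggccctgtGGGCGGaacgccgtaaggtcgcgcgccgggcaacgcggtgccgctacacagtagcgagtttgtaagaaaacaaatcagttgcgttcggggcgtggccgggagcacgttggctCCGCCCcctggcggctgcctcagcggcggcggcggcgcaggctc
CCND3: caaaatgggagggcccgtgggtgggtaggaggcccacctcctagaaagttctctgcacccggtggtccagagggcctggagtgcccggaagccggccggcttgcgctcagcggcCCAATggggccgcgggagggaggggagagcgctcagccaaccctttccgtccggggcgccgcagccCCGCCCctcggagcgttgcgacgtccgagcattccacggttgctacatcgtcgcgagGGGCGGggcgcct
The *CDKN1A* stretch held 4 matches to the GC box, of which the last pair shares bases, and 0 matches to CCAAT. *CDKN1B* held 1 GC box and 2 CCAAT boxes, and *CDKN2D* and *CCND3*, which moved in opposite directions, each held 2 GC boxes and 1 CCAAT box. None of the 4 stretches held TATAAA or CACGTG. Of 35116 RefSeq promoter windows of the same length, 42.6% held the GC box, 32.0% held CCAAT, 10.7% held TATAAA and 6.34% held CACGTG. The stretches were 76.4%, 64.4%, 67.6% and 71.2% G or C in the order printed.

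To ask how GNE-987 changed the brakes and the drivers of G1, expression was compared between the 2 groups with limma on log2(FPKM + 0.1) in the 16668 genes whose mean reached 0.5 FPKM. A gene was called where the unadjusted P value was under 0.05 and the fold change above 2 or below 0.5. Adjusted P values were computed by the Benjamini-Hochberg method over every gene tested. The inhibitors *CDKN1A*, *CDKN1B* and *CDKN2D* rose and the cyclins *CCND1* and *CCND3* fell with GNE-987, while *CDKN1C*, *CDKN2C* and *CCND2* were not called. Thus 3 of the 8 members tested were called higher and 2 lower, and the other 2 members, *CDKN2A* and *CDKN2B*, were listed at 0 in every library and could not pass the filter. Over all tested genes, 33.6% were called higher and 24.9% lower, so the number of members called is near the background and is not a result about the members. The median log2 fold change was 0.45 over the 8 members and 0.17 over all tested genes. Fold changes on this scale understate the change of low genes, and an exact permutation test of 2 against 2 libraries cannot give a two-sided P value below 0.333.

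**Figure D1:**
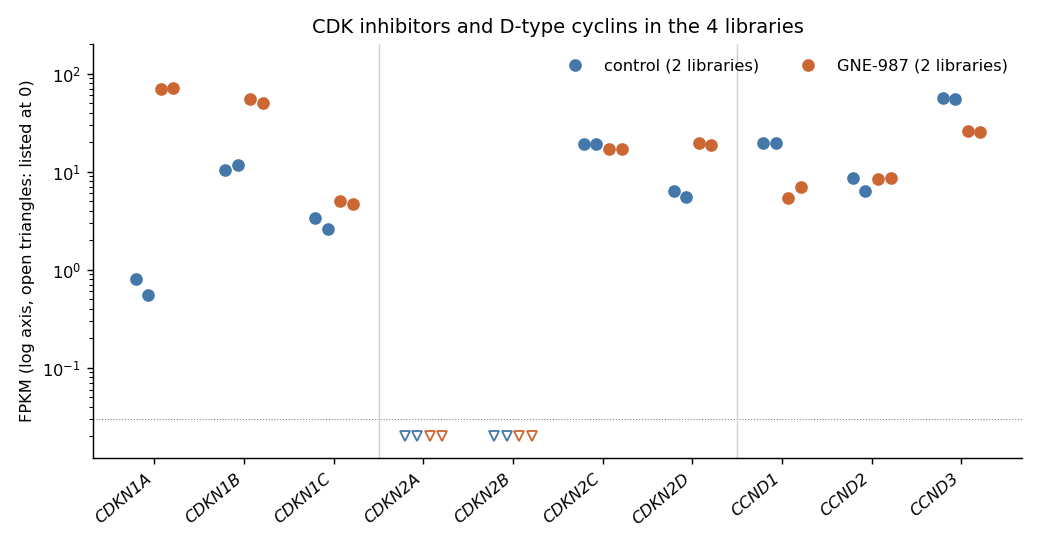
FPKM (log axis) of the 10 genes in each of the 2 control and 2 GNE-987 libraries, 1 point per library, with open triangles below the dotted line for values listed at 0. *CDKN1A* went from below 1 FPKM to 70.0 and 71.9 FPKM, *CCND1* and *CCND3* were lower in both GNE-987 libraries, and *CCND2* overlapped between the groups.

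*CDKN1A* (ENSG00000124762, chr6:36676460-36687337, plus strand) encodes p21, which inhibits cyclin and CDK2 complexes. The 2 control libraries had 0.812 and 0.548 FPKM, from 57 and 37 reads. The 2 GNE-987 libraries had 70.0 and 71.9 FPKM, from 1785 and 1935 reads. Both GNE-987 libraries thus held more reads of the gene than either control library despite their smaller depth. The mean was 0.680 ± 0.186 FPKM (SD, n = 2) in the controls and 70.9 ± 1.33 FPKM (SD, n = 2) with GNE-987, a 104-fold difference of the means, and the log2 fold change was 6.53 (SE 0.188, limma, adjusted P = 0.000167). Among protein-coding genes above 0 in the same library, *CDKN1A* moved from the percentiles 30.5 and 26.6 to the percentiles 96.0 and 96.1, a rank that does not depend on the scaling between libraries. In these bulk libraries a larger number of cells that express a gene and more RNA per cell cannot be told apart.

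The surroundings of *CDKN1A* were not all alike. *DINOL*, a long noncoding RNA gene on the opposite strand that overlaps *CDKN1A* by 951 bases, was listed at 0 in both controls and at 16.4 and 17.0 FPKM with GNE-987, and since the counting is not stated to use strand, reads of the 2 genes cannot be told apart there. *RAB44*, which begins 10.5 kb past the 3′ end of *CDKN1A*, was also listed at 0 in both controls and was at 2.60 and 3.13 FPKM with GNE-987. *SRSF3*, 70.9 kb before the 5′ end, was at 58.7 and 58.3 FPKM in the controls and 42.2 and 40.5 FPKM with GNE-987 (log2 fold change -0.50). It was not called in the deposited scaling, but was called lower with the total of recovered reads (-1.28).

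*CDKN1B* (ENSG00000111276, chr12:12685498-12722369, plus strand) encodes p27. It was at 10.5 and 11.8 FPKM in the controls and at 55.0 and 50.1 FPKM with GNE-987, so the groups did not overlap. The mean rose from 11.1 ± 0.906 to 52.5 ± 3.45 FPKM (SD, n = 2 each), which is 4.72-fold, with a log2 fold change of 2.23 (SE 0.0876, limma, adjusted P = 0.000240). Its reads were recovered only up to a whole factor, with at least 679 and 732 in the controls and 1292 and 1243 with GNE-987. Within the libraries it moved from the percentiles 75.0 and 77.2 to 94.9 and 94.6 of protein-coding genes. With libraries scaled to *GAPDH* its log2 fold change was 0.38 and the gene was no longer called. *APOLD1*, which begins 3.55 kb past the 3′ end of *CDKN1B*, was at 0.144 and 0.119 FPKM in the controls and at 6.03 and 6.90 FPKM with GNE-987. *APOLD1* passed the filter only through the GNE-987 libraries. Its log2 fold change of 4.83 (limma) depends on the 0.1 added, since the control values are near it, and was 3.32 with scaling to *GAPDH*. *CREBL2*, 40.4 kb before the outermost annotated 5′ end, fell from 2.05 and 1.78 to 0.366 and 0.607 FPKM (-1.81). *CREBL2* lies further from the canonical start of *CDKN1B*, whose promoter is printed above. *GPR19*, on the opposite strand and overlapping *CDKN1B*, stayed at or under 0.319 FPKM in all 4 libraries.

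*CDKN1C* (ENSG00000129757, chr11:2883213-2885775, minus strand) encodes p57, the imprinted member of the family. It was at 3.40 and 2.57 FPKM in the controls and at 5.02 and 4.66 FPKM in the GNE-987 libraries. The groups did not overlap, but the fold was 1.62, below the threshold, and the log2 fold change was 0.69 (SE 0.165, 95% confidence interval 0.22 to 1.16, limma, adjusted P = 0.0216). The direction of this difference turned under scaling to the total of recovered reads, where it was -0.07.

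The make-up of the CIP/KIP family was compared within each library, since shares of a sum do not depend on the scaling between libraries. *CDKN1A* made up 5.52% and 3.68% of the summed FPKM of the 3 genes in the controls and 53.8% and 56.8% with GNE-987. *CDKN1B* went from 71.4% and 79.0% to 42.3% and 39.6%, although its own level rose. *CDKN1C* went from 23.1% and 17.3% to 3.86% and 3.68%. The largest share of FPKM was therefore that of *CDKN1B* in both control libraries and that of *CDKN1A* in both GNE-987 libraries. This order also depends on the gene lengths used for FPKM.

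**Figure D2:**
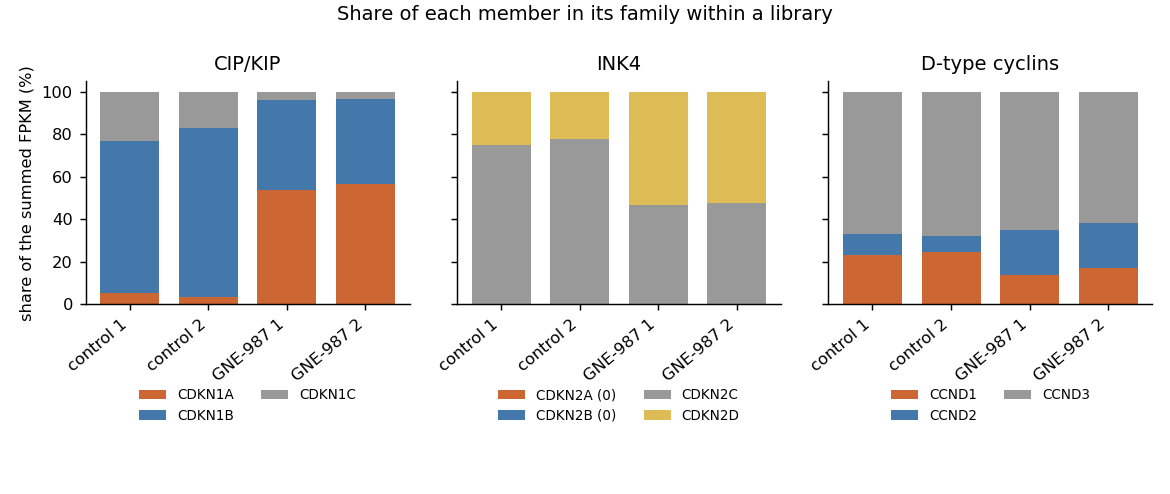
Share (percent) of each gene in the summed FPKM of its family within each of the 4 libraries, as stacked bars for the CIP/KIP genes, the INK4 genes and the D-type cyclins. *CDKN1A* grows from 5.52% and 3.68% to 53.8% and 56.8%, *CDKN2D* from 25.2% and 22.3% to 53.4% and 52.4%, and *CCND3* stays the largest D-type cyclin.

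Of the INK4 genes, *CDKN2D* (ENSG00000129355, chr19:10566460-10569059, minus strand) encodes p19, an inhibitor of CDK4 and CDK6. It was at 6.39 and 5.50 FPKM in the controls and at 19.7 and 18.8 FPKM with GNE-987, from 183 to 250 reads per library, and the groups did not overlap. The mean rose 3.24-fold, with a log2 fold change of 1.68 (SE 0.0950, limma, adjusted P = 0.000457). This call rests on the scaling. The log2 fold change was 0.91, below the threshold of 1, when libraries were scaled to the total of recovered reads, and -0.15 when they were scaled to *GAPDH*, a glycolytic gene that itself went from 398 and 432 to 1501 and 1499 FPKM. In the ranks within libraries *CDKN2D* moved from the percentiles 64.3 and 60.2 to 88.0 and 87.7.

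*CDKN2C* (ENSG00000123080, chr1:50960745-50974634, plus strand) encodes p18. It was at 18.9 and 19.1 FPKM in the controls and at 17.2 and 17.1 FPKM with GNE-987, a log2 difference of -0.15 (SE 0.0455, 95% confidence interval -0.28 to -0.02, limma, adjusted P = 0.0424). The groups did not overlap, but the difference was well below the fold threshold, and the percentiles were 85.4 and 85.6 in the controls and 86.5 and 86.7 with GNE-987. Of the summed FPKM of the INK4 genes, *CDKN2C* made up 74.8% and 77.7% in the controls and 46.6% and 47.6% with GNE-987, and *CDKN2D* the rest.

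*CDKN2A* (ENSG00000147889, chr9:21967752-21995301, minus strand), which encodes p16 and ARF, and its neighbor *CDKN2B* (ENSG00000147883, chr9:22002903-22009305, minus strand), which encodes p15, were listed at 0 in all 4 libraries. At this depth 3 reads of *CDKN2A* would be 0.0335 and 0.0349 FPKM in the controls and 0.0924 and 0.0875 FPKM with GNE-987, and for *CDKN2B* between 0.0326 and 0.0897 FPKM. These limits cover counting error only. The 2 genes were not alone. All 25 consecutive protein-coding genes from *HACD4* to *TUSC1*, over 4.68 Mb (chr9:20999509-25678444), were listed at 0 in all 4 libraries, among them *MTAP*, *KLHL9* and 16 interferon genes. Among all genes listed, 3282 of 19831 protein-coding genes (16.5%) were at 0 in all 4 libraries. Of the 72 genes of any type in this stretch, 1 was above 0, the processed pseudogene *CLIC4P1*, whose reads can be shared with *CLIC4*. Next to the stretch on one side, *FOCAD* was low, at 0.117 and 0.0946 FPKM in the controls, and *MLLT3* beyond it was at 1.78 and 1.56 FPKM. On the other side *CAAP1* was at 4.12 and 3.60 FPKM.

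**Figure D3:**
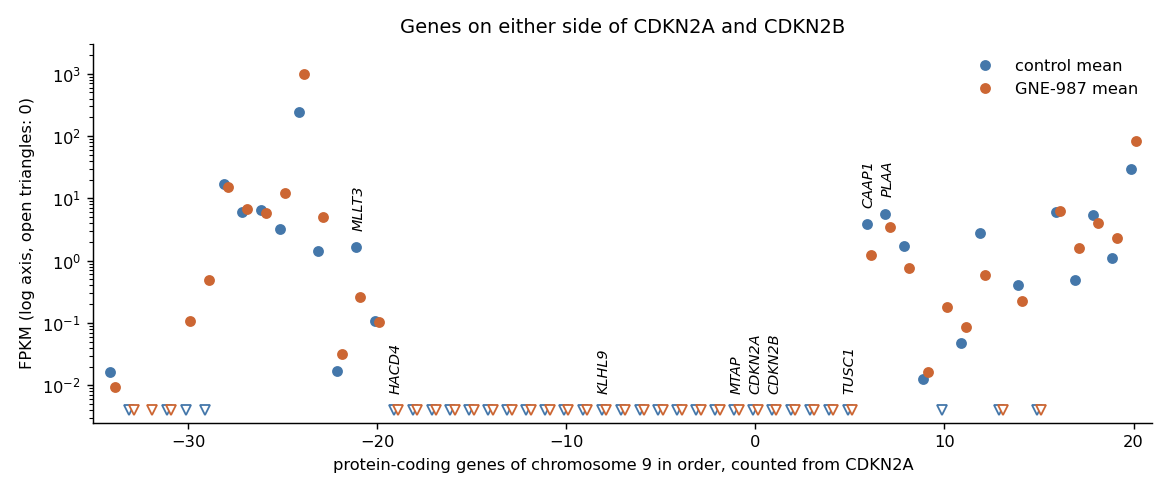
Mean FPKM (log axis, n = 2 libraries per group) of protein-coding genes of chromosome 9 in their order, counted from *CDKN2A* at 0, with open triangles for genes at 0. The 25 genes from *HACD4* to *TUSC1* are at 0 in both groups, and *MLLT3* on one side and *CAAP1* and *PLAA* on the other are above 0.

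The D-type cyclins moved unequally. *CCND1* (ENSG00000110092, chr11:69641156-69654474, plus strand), cyclin D1, was at 19.6 and 19.7 FPKM in the controls and at 5.37 and 7.01 FPKM with GNE-987, or 2182 and 2110 against 217 and 299 reads. The groups did not overlap, and the GNE-987 libraries were further apart than the controls. The mean fell from 19.7 ± 0.0900 to 6.19 ± 1.16 FPKM (SD, n = 2 each), 3.18-fold lower, with a log2 fold change of -1.66 (SE 0.146, limma, adjusted P = 0.00124). *LTO1*, which overlaps *CCND1* by 1399 bases on the opposite strand, rose from 3.46 and 3.49 to 7.34 and 7.60 FPKM, with a log2 fold change of 1.08 (limma) that was 0.32 and not called when scaled to the total of recovered reads and -0.74 with scaling to *GAPDH*. The reads of the overlap cannot be assigned to one of the genes.

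*CCND3* (ENSG00000112576, chr6:41934934-42050357, minus strand), cyclin D3, had the highest FPKM of the 10 genes in both control libraries, at 56.7 and 54.6. It was at 25.7 and 25.1 FPKM with GNE-987. The mean fell from 55.7 ± 1.51 to 25.4 ± 0.434 FPKM (SD, n = 2 each), 2.19-fold lower, with a log2 fold change of -1.13 (SE 0.0455, limma, adjusted P = 0.000248). Both genes next to it fell as well. *BYSL*, 1.89 kb past its 3′ end, went from 41.5 and 42.3 to 13.2 and 11.2 FPKM (log2 fold change -1.78, limma). *TAF8*, 156 bases before the outermost annotated 5′ end of *CCND3*, went from 4.94 and 4.85 to 1.53 and 1.56 FPKM (-1.60). The canonical start of *CCND3*, whose promoter is printed above, lies at chr6:41941808, well inside the span of the gene. *TAF8* is therefore not next to that start.

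*CCND2* (ENSG00000118971, chr12:4269771-4305353, plus strand), cyclin D2, was at 8.56 and 6.30 FPKM in the controls and at 8.31 and 8.66 FPKM in the GNE-987 libraries. The groups overlapped, and the log2 difference of 0.20 was not significant (SE 0.170, 95% confidence interval -0.28 to 0.69, limma, adjusted P = 0.326). Without control replicate 2, the lowest library, it was -0.01. As a share of the summed D-type cyclins, *CCND2* was at 10.1% and 7.81% in the controls and at 21.1% and 21.2% with GNE-987. *CCND1* went from 23.1% and 24.5% to 13.6% and 17.2%, and *CCND3* was at 66.8% and 67.7% in the controls and at 65.3% and 61.6% with GNE-987.

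The ratio of inhibitors to cyclins was computed within each library. The summed CIP/KIP genes were 0.173 and 0.185 times the summed D-type cyclins in the controls and 3.30 and 3.11 times with GNE-987, and the groups were far apart. The INK4 genes were 0.298 and 0.306 times the D-type cyclins in the controls and 0.935 and 0.883 times with GNE-987. *CDK4* and *CDK6* together were 1.80 and 1.84 times the INK4 genes in the controls and 0.431 and 0.386 times with GNE-987. A ratio of FPKM between genes depends on the gene lengths used. Only its change between the groups is read here, not which mRNA exceeded the other. The D-type cyclins were 1.86 and 1.78 times *CDK4* and *CDK6* in the controls and 2.48 and 2.93 times with GNE-987. These are ratios of mRNA, and protein was not measured in these libraries.

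**Figure D4:**
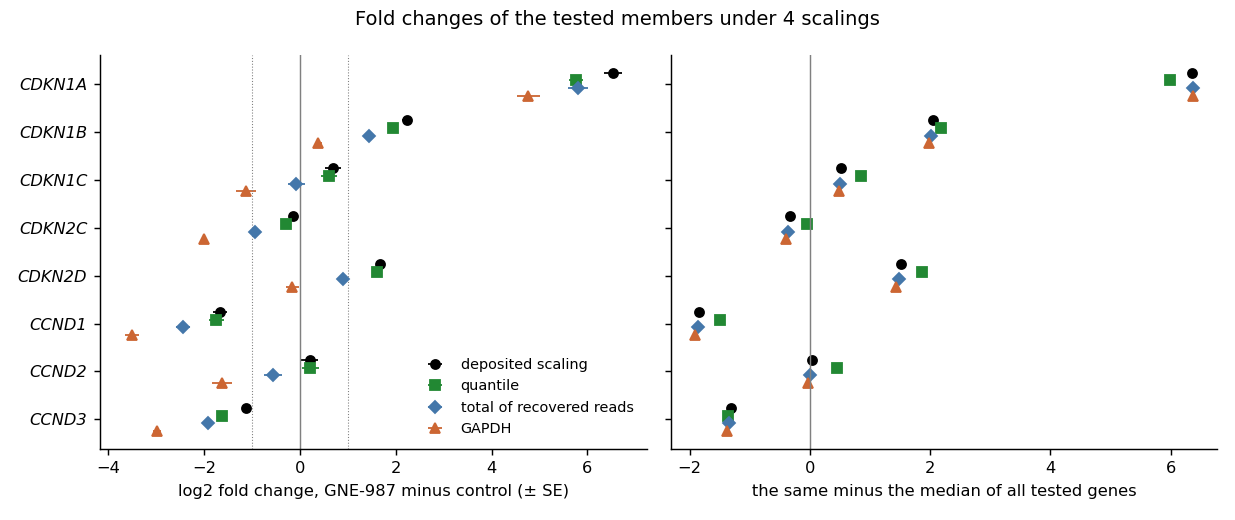
Left, log2 fold change (GNE-987 minus control, ± SE, n = 2 libraries per group) of the 8 tested members under the deposited scaling, quantile normalization, scaling by total recovered reads and scaling to GAPDH, with dotted lines at a fold of 2. Right, the same values minus the median of all tested genes. The points of a gene lie apart on the left, with *CDKN2D* between -0.15 and 1.68. They lie closer together on the right by construction, since subtracting the median removes a shift shared by all genes.

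Since another scaling moves the whole distribution of fold changes, the members were also read against the median log2 fold change of all tested genes. That median was 0.17 in the deposited scaling, -0.57 with the total of recovered reads and -1.59 with *GAPDH*. Scaling by a factor per library shifts all fold changes almost alike, and the subtraction removes that shift. Closeness across those scalings is therefore built in and is not a test of stability. Relative to it, *CDKN1A* lay between 5.29 and 6.61 over the deposited setting and 16 alternatives, *CDKN1B* between 1.87 and 2.20 and *CDKN2D* between 1.33 and 1.86. *CCND1* lay between -2.02 and -1.50 and *CCND3* between -1.48 and -1.16. *CDKN1C* lay between 0.34 and 0.85, *CDKN2C* between -0.50 and -0.04, and *CCND2* between -0.17 and 0.46. With scaling to *GAPDH*, *CDKN1C*, *CDKN2C* and *CCND2* were called lower beside *CCND1* and *CCND3*, and only *CDKN1A* was called higher. In that setting 18.2% of all tested genes were called higher and 58.4% lower, so these calls are not a result about the members.

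The partners of the members in G1 were followed in a list of 21 genes, all of which were tested. Of these, 5 rose, 9 fell and 7 were not called. That is 23.8% higher and 42.9% lower, against 33.6% and 24.9% of all tested genes, and the median log2 fold change was -0.62 against 0.17. The kinases fell, *CDK6* from 10.6 and 10.8 to 2.12 and 1.75 FPKM (log2 fold change -2.42) and *CDK4* from 35.0 and 34.5 to 13.7 and 12.2 FPKM (-1.42). *CDK2*, named here after its value was seen, fell as well, from 21.5 and 21.4 to 7.86 and 7.71 FPKM. *RBL2*, which encodes the retinoblastoma relative p130, fell from 6.03 and 6.08 to 0.997 and 1.13 FPKM (-2.41), whereas *RB1* was not called, at 6.26 and 6.21 FPKM in the controls and 5.26 and 4.99 FPKM with GNE-987 (-0.28). *RB1* was called lower, by limma on values scaled to the total of recovered reads, with a log2 fold change of -1.04. Adjusted P values of *CDK4*, *CDK6* and *RBL2* were 0.000426 or less (limma).

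The ligase that marks p27 was lower in part. *SKP2*, its substrate receptor, fell from 12.8 and 13.2 to 5.24 and 4.58 FPKM (log2 fold change -1.39), and *CUL1*, its scaffold, from 32.1 and 32.1 to 11.1 and 10.2 FPKM (-1.59), with adjusted P values of 0.000619 and 0.000242 (limma). *SKP1* and *CKS1B*, the adaptor and the accessory subunit, both named after their values were seen, were among the 5 genes that rose. The ratio of *CDKN1B* to *SKP2* within a library was 0.818 and 0.894 in the controls and 10.5 and 10.9 with GNE-987. *FOXO3*, a transcription factor known to activate *CDKN1B*, rose from 2.97 and 3.24 to 13.5 and 13.3 FPKM (2.07), and *CCNE2*, a cyclin that binds CDK2, from 1.99 and 2.00 to 6.12 and 6.34 FPKM (1.59). With scaling to the total of recovered reads, 1 gene of the list, *FOXO3*, was called higher and 14 lower, where 25.1% of all tested genes were higher and 39.9% lower. With scaling to *GAPDH* the direction turned for *CCNE2* (-0.21), *CKS1B* (-0.40), *SKP1* (-0.39) and *FBXW7* (-0.55), all called higher in the deposited scaling. It also turned for *CDK7*, which was not called there (0.36) and was called lower with *GAPDH* (-1.48).

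Since *CDKN1A* responds to DNA damage and stress, 19 stress response genes were followed, of which 16 were tested and *FAS*, *PHLDA3* and *TIGAR* were too low. Of the 16, 3 rose, 2 fell and 11 were not called. That is 18.8% higher and 12.5% lower, both below the 33.6% and 24.9% of all tested genes, and the median log2 fold change was 0.03. *BTG2*, an antiproliferative gene, rose from 4.27 and 4.10 to 40.7 and 41.9 FPKM (log2 fold change 3.27), and *SESN2*, a gene of the response to oxidative stress, from 17.5 and 17.5 to 51.5 and 53.5 FPKM (1.58). *MDM4* fell from 4.29 and 4.30 to 0.532 and 0.556 FPKM (-2.77), and *ZMAT3* fell with a log2 fold change of -1.08. *MDM2*, which encodes a ubiquitin ligase, was not called, at 4.57 and 4.88 FPKM in the controls and 2.57 and 2.61 FPKM with GNE-987 (-0.84). Adjusted P values of the called genes named here were 0.00815 or less (limma). With scaling to the total of recovered reads, *BTG2* was the 1 gene called higher, and 6 were called lower, *MDM2* among them (-1.60). In that setting 25.1% of all tested genes were called higher and 39.9% lower, so the number called lower is near the background. With scaling to *GAPDH*, *SESN2* turned to -0.27, and other genes of the list turned as well.

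**Figure D5:**
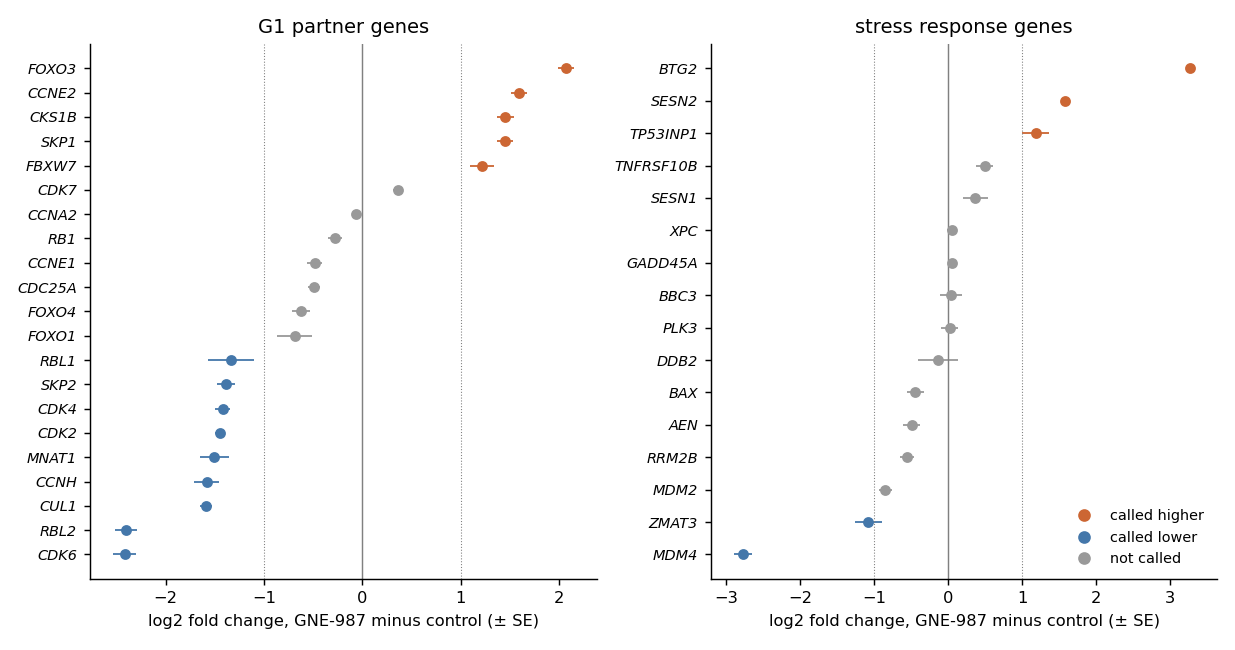
Log2 fold change (GNE-987 minus control, ± SE, n = 2 libraries per group) of the 21 G1 partner genes and the 16 tested stress response genes in the deposited scaling, with dotted lines at a fold of 2. Of the partner genes 5 are called higher and 9 lower, and of the stress response genes 3 are called higher and 2 lower.

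The genes whose values over the 4 libraries were most like those of *CDKN1A* and *CCND1* were found by the Euclidean distance of the centered log2(FPKM + 0.1) values among 6422 other genes whose mean reached 5 FPKM. For *CDKN1A* they included *SNORD3B-2* and ENSG00000279501, at distances of 0.183 and 0.205. *SNORD3B-2* was at 0.0549 and 0 FPKM in the controls and 12.6 and 11.2 FPKM with GNE-987. ENSG00000279501 was at 1.91 and 1.39 FPKM in the controls and 134 and 148 FPKM with GNE-987. Both genes passed the filter only through the GNE-987 libraries. The distance of *SNORD3B-2* depends on the 0.1 added, so its likeness to *CDKN1A* is not a result. For *CCND1* they were *TFCP2*, *VPS52* and *PYURF*, at distances of 0.0121, 0.0780 and 0.0790. *TFCP2* was at 11.5 and 11.6 FPKM in the controls and 3.16 and 4.09 FPKM with GNE-987.

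The study also listed genes assigned to super-enhancers, which are clustered enhancers with a strong H3K27ac signal. *CDKN1B* was on both the list common to leukemia samples and the list of NB4 cells, and *CCND3* and *CDKN2C* were on the list of NB4 cells. None of the 10 members was on the list of NB4 cells treated with GNE-987. Of the 3 genes on the list of untreated NB4 cells, *CDKN1B* rose, *CCND3* fell and *CDKN2C* was not called. These are too few genes for a statement about the list. The other 7 members were on none of the 3 lists. The lengths of the lists and the share of all genes on each were not computed. The numbers of members on them are therefore not a result about the members, and a loss of super-enhancers at these genes was not tested.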

How the data were processed

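RNA was extracted with Trizol, and libraries were made with a TruSeq RNA kit. Filtered reads were mapped by the authors with HISAT2 (version 2.0.5, hg38, from the submitters' processing notes), who deposited an FPKM table with a column for each library. The tool that counted reads and its use of strand are not given in the sources used here. The labels gave the groups and replicate numbers, and the study's text gave dose and time. Names and positions came from GENCODE release 44 on GRCh38, which held 99.1% of the identifiers. The members and gene lists were chosen with earlier results of these data known.

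Since FPKM values are not counts, log2(FPKM + 0.1) was tested with limma 3.58.1 in R 4.3.3 (eBayes with trend, without a block for replicates) on genes whose mean reached 0.5 FPKM. The test was checked on simulated data. Whole reads (within 0.01) were recovered from the smallest steps of FPKM. The GENCODE exon length gave whole reads in every library for 53.8% of the 32895 genes above 0, and another length was searched for in the rest. The deposited values were scaled to 23024012 and 22120718 reads in the controls and to 8360488 and 8826052 with GNE-987, which is 1.18, 1.15, 0.673 and 0.683 times the recovered reads. These factors are approximate, since the reads of some genes are known only up to a whole factor. The median ratio of a library to the geometric mean of the 4 was 1.01 in each library, so the deposited values were already on a median-ratio scale, and scaling by median ratio changes nothing.

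From the lists of G1 partner genes and stress response genes, the text names the 5 with the largest log2 fold change in size among those called with a mean of at least 1 FPKM, plus *CDK4*, *CDK6*, *RB1*, *SKP2* and *MDM2*. Some genes, 1 of them removed from the second list after the tests were fixed, are not reported here. Neighbors and all other genes were named with their values known. Alternatives comprised scaling to GAPDH, to the total of recovered reads, by median ratio and by quantiles, limma-voom on recovered reads, other pseudocounts (0.01 and 1) and filters (no filter and 1 FPKM), calls by adjusted P value, testing against a fold of 2, a replicate block, and leaving out each library.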

Additional observations from a re-analysis of the deposited data

How the results depend on the processing

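Over 16 alternatives, *CDKN1A*, *CCND1* and *CCND3* kept their calls in each, with log2 fold changes between 4.77 and 6.78, -3.50 and -1.48, and -2.98 and -1.10. Adjusted P values, the block and the test against a fold of 2 leave the fold changes as they are and can change only the call, and median-ratio scaling changes neither. The scaling between libraries had the most effect. It moved the median of all genes by -0.74 with the total of recovered reads, -1.77 with GAPDH and -0.42 with quantiles. With GAPDH, 1 member was higher and 5 lower, *CDKN1B* was at 0.38 and no longer called, *CDKN2C* at -1.99 was called, and *CDKN1C*, *CDKN2D* and *CCND2* turned to -1.11, -0.15 and -1.63, with *CDKN1C* and *CCND2* called lower and *CDKN2D* not called. With the total of recovered reads, *CDKN1C* and *CCND2* turned to -0.069 and -0.57 and *CDKN2D* was at 0.91. With limma-voom on recovered reads, *CDKN1C* and *CCND2* turned to -0.069 and -0.57 and *CDKN2D* was at 0.92. Leaving out 1 library at a time, *CCND2* lay between -0.014 (without control replicate 2) and 0.42 (without control replicate 1). Of the G1 partner genes, 5 higher and 9 lower became 1 and 14 with limma-voom and with the total of recovered reads, 0 and 16 with GAPDH, and 3 higher with quantiles. Of the stress response genes, 3 higher and 2 lower became 1 and 6 with limma-voom and with the total of recovered reads, 1 and 13 with GAPDH, and 5 higher with no filter. With a pseudocount of 1, a test against a fold of 2, or without either GNE-987 replicate 2 or control replicate 2, 1 stress response gene was lower, a range of 1 to 2 over the libraries left out. Over all genes, 5602 higher and 4148 lower became 4180 and 6654 with the total of recovered reads, 4234 and 6721 with limma-voom, 3031 and 9738 with GAPDH, and 4235 and 5464 with quantiles. As shares of the tested genes, 33.6% higher and 24.9% lower became 25.1% and 39.9% with the total of recovered reads. They became 25.4% and 40.3% with limma-voom, 18.2% and 58.4% with GAPDH, and 25.4% and 32.8% with quantiles. The counts of members and listed genes are to be read beside these shares. Beyond the scaling of whole libraries, the cause was not tested.

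The deviations of same-numbered libraries from their group means had a correlation of 0.00537 across genes. This value cannot tell whether same-numbered libraries shared a culture or a batch, which the labels do not say. With the replicate block, 3 members were higher and 2 lower, 5 and 9 G1 partner genes, and 3 and 2 stress response genes, and over all genes 5667 were higher and 4186 lower. With 2 libraries per group, and with 37 and 57 reads in the controls, *CDKN1A* had the largest standard error among the called members (0.188).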
